A study of Mus musculus with 6 samples.

Results

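Calprotectin is the heterodimer of S100A8 and S100A9, and its genes were followed here together with those of the receptors it is known to engage. The 7 genes are *S100a8*, *S100a9*, *Tlr4*, *Ly96*, *Cd14*, *Myd88* and *Ager*. They were picked by gene symbol from the 54532 genes of the deposited count table, and all 7 were among the 18689 genes with enough reads to be tested. RNA came from perfused whole lungs of untreated mice at 2 months of age, with 3 WT and 3 ISM1-/- libraries. WT C57BL/6J mice were purchased and ISM1-/- mice, in which the gene of the secreted protein isthmin 1 was targeted, were made in-house on the same background, so the effect of genotype and that of where the mice came from cannot be told apart. The labels name no batch, and nothing in them ties a mouse of 1 genotype to a mouse of the other.

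S100A8 and S100A9 are small calcium-binding proteins that neutrophils and inflammatory monocytes store in their cytoplasm in large amounts and release when activated. Outside the cell the heterodimer binds zinc and manganese, and it is known as an alarmin that signals through Toll-like receptor 4 (TLR4) and the receptor for advanced glycation end products (RAGE). TLR4 needs the co-receptor MD-2, encoded by *Ly96*, and is helped by CD14, and it signals inside the cell through MyD88. RAGE, encoded by *Ager*, is in the lung a surface protein of alveolar type 1 cells, the flat cells that line the alveolus.

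Total counts ranged from 37606133 to 42345042 per library. Values are given as counts, as TMM-normalized CPM (counts scaled to library size), or as FPKM, which also corrects for gene length. ISM1-/- was compared with WT in edgeR (quasi-likelihood fit), adjusting by Benjamini-Hochberg over all 18689 genes, and a gene was called at an adjusted p under 0.1. Counts of the targeted gene *Ism1* were 3098, 3215 and 2975 in WT, against 2784, 2508 and 2953 where the label says ISM1-/- (log2 fold change −0.19, adjusted p = 0.217 in edgeR), so the genotype rests on the labels. ISM1-/- below means the library labelled so. WT replicate 1 stood apart in cardiomyocyte markers, with a summed level of 1625 CPM against 291 to 635 CPM in the other 5 libraries, and it is also low in *Ager* (below). Of all genes tested, 1.38% were called higher in ISM1-/-, 3.34% were called lower, and 0.284% were called higher with at least a 2-fold difference. In 21.6% of all genes tested the values of the genotypes did not overlap.

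*S100a8* (ENSMUSG00000056054) lies on chromosome 3 from 90668978 to 90670035 on the forward strand of GRCm38. *S100a9* (ENSMUSG00000056071) lies from 90692632 to 90695721 on the reverse strand, 22596 bases further on. Since both genes differed between genotypes, the DNA just before their RefSeq transcription starts is shown. The RefSeq promoter table (GRCm38.p6) holds 4 of the 7 genes, namely *S100a8*, *S100a9*, *Myd88* and *Ager*. The sequences run from 250 bases before the start annotated in RefSeq to position 6 after it. For *S100a9* this start is the gene end at 90695721 given above. For *S100a8* it lies inside the gene as placed above. The part of that stretch from 90668978 on, which includes its TATAAA, is therefore within the gene as placed there. The *S100a8* stretch is chr3:90668821-90669076 on the forward strand and the *S100a9* stretch is chr3:90695716-90695971 on the reverse strand, each written 5′ to 3′ on its own strand. Capitals mark every match to the 6 motifs searched.
S100a8: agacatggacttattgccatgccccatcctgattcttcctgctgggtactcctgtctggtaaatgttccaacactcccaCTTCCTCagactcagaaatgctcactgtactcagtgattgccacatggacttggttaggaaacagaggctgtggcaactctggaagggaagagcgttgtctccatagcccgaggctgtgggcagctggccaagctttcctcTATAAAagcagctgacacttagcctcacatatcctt
S100a9: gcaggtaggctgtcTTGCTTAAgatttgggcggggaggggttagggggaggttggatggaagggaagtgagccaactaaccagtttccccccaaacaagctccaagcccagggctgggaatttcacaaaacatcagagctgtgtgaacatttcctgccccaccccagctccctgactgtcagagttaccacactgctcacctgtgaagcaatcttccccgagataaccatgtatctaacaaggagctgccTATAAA

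The motifs were searched on both strands of the 300-base windows. In the *S100a8* window the capitals are CTTCCTC at position −171, the reverse complement of the PU.1 letters GAGGAAG, and the TATA box letters TATAAA at position −30. In the *S100a9* window they are TTGCTTAA at position −236, a match to the C/EBP letters TTGCNNAA, and TATAAA at position 1, at the annotated start itself. Of all 32851 windows in the table, 13.6% hold GAGGAAG, 10.8% hold TTGCNNAA and 13.6% hold TATAAA. The letters TGANTCA (AP-1, 7.81% of all windows), TTCNNNGAA (STAT, 8.30%) and the NF-kB motif (20.7%) were in neither window. In the *S100a8* and *S100a9* windows no match overlapped another. The *Myd88* window holds 1 STAT match and 2 TATA box matches, on opposite strands and sharing bases, and the *Ager* window holds none. A match here is a match of letters and not a measured binding site.

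Both calprotectin genes were higher in ISM1-/- lungs. WT lungs gave 178, 190 and 242 counts of *S100a8*, and ISM1-/- lungs gave 852, 487 and 418. Scaled to library size this is 4.72, 4.58 and 6.26 CPM in WT against 20.04, 12.8 and 10.7 CPM in ISM1-/-. All ISM1-/- libraries lay above all WT libraries, and ISM1-/- replicate 1 was the highest. The mean was 5.19 ± 0.93 CPM in WT against 14.5 ± 4.89 CPM in ISM1-/- (SD, n = 3 each). The level in ISM1-/- was 2.81-fold that in WT (95% confidence interval 1.98 to 3.97), a log2 fold change of 1.49 with a standard error of 0.22 (adjusted p = 0.0163 in edgeR).

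*S100a9* encodes the other subunit, which carries the longer tail of the pair and stabilises S100A8. Its counts were 375, 562 and 561 in WT, against 2063, 1148 and 1006 in ISM1-/-, or 9.95, 13.5 and 14.5 CPM in WT and 48.5, 30.3 and 25.8 CPM in ISM1-/-. The genotypes again did not overlap, and the ISM1-/- libraries stood in the same order as for *S100a8*. The mean was 12.7 ± 2.40 CPM in WT against 34.9 ± 12.0 CPM in ISM1-/- (SD, n = 3 each). The level was 2.75-fold that in WT (95% confidence interval 1.95 to 3.88), a log2 fold change of 1.46 with a standard error of 0.22 (adjusted p = 0.0163 in edgeR). With each library left out in turn both genes were called in all 6 fits, and the log2 fold change was smallest without ISM1-/- replicate 1, at 1.19 for *S100a8* and 1.15 for *S100a9*. In bulk RNA of whole lung, more cells of a type and more RNA per cell cannot be told apart.

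**Figure D1:**
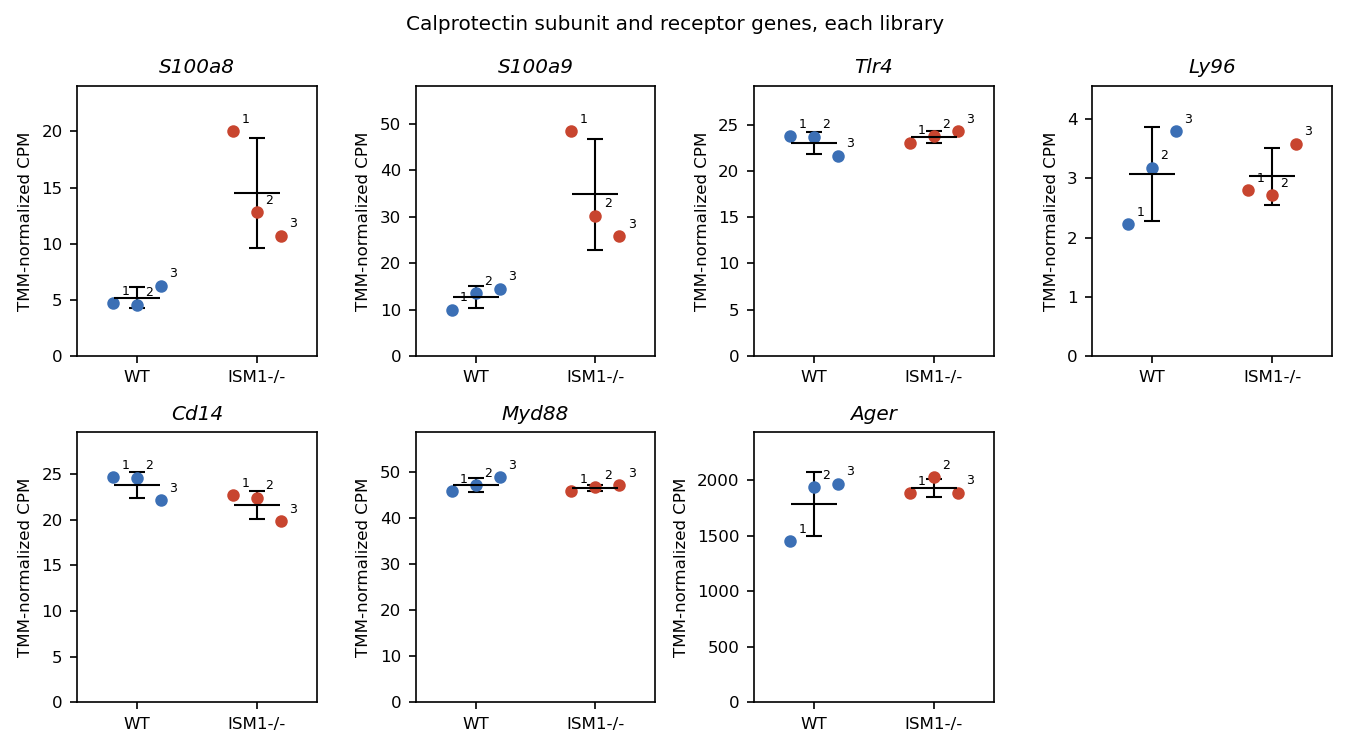
TMM-normalized CPM (y axes, from 0) of the 7 genes in each of 3 WT (blue) and 3 ISM1-/- (red) libraries, numbered by replicate, with the mean (long bar) and SD (capped bar). *S100a8* and *S100a9* do not overlap between genotypes, with ISM1-/- replicate 1 highest at 20.04 and 48.5 CPM, while the other 5 genes overlap.

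The subunit genes kept nearly the same proportion to each other. The ratio of *S100a9* to *S100a8* counts was 2.11, 2.96 and 2.32 in WT, against 2.42, 2.36 and 2.41 in ISM1-/-. Its mean was 2.46 ± 0.44 (SD, n = 3) in WT and 2.40 ± 0.03 (SD, n = 3) in ISM1-/-, and the WT range enclosed all ISM1-/- values. The ratio of FPKM values, which takes out gene length, averaged 2.29 in ISM1-/-.

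The receptor and adaptor genes did not pass the test in either direction. None of the 5 was called by edgeR, DESeq2 or limma, and 0 of the 5 had an unadjusted p under 0.05 in edgeR. *Tlr4* (ENSMUSG00000039005, chromosome 4, 66827584 to 66930284, forward strand) had WT counts of 897, 984 and 838 against 980, 901 and 949 in ISM1-/-. Its mean was 23.1 ± 1.2 CPM in WT and 23.7 ± 0.64 CPM in ISM1-/- (SD, n = 3 each), and the libraries overlapped. The log2 fold change was 0.04 (95% confidence interval −0.11 to 0.19; adjusted p = 0.846 in edgeR), so the interval ends at 1.14-fold.

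*Ly96* (ENSMUSG00000025779, chromosome 1, 16688051 to 16709611, forward strand) encodes MD-2, the subunit in which TLR4 holds its lipid ligand. It had the lowest counts of the 7, with WT counts of 84, 132 and 147 against 119, 103 and 140 in ISM1-/-. The means were 3.07 ± 0.79 CPM in WT and 3.03 ± 0.48 CPM in ISM1-/- (SD, n = 3 each). At these counts, and with this spread between libraries, the log2 fold change of −0.02 has a 95% confidence interval from −0.50 to 0.46 (adjusted p = 0.983 in edgeR). The interval reaches from 0.709-fold to 1.37-fold, and a difference within it was not detectable in these libraries.

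*Cd14* (ENSMUSG00000051439, chromosome 18, 36725074 to 36726736, reverse strand) encodes the lipid-anchored protein that hands ligands to the TLR4 complex. It had WT counts of 928, 1021 and 856 against 963, 850 and 775 in ISM1-/-, with means of 23.8 ± 1.43 and 21.6 ± 1.54 CPM (SD, n = 3 each). The ranges overlapped, and the log2 fold change was −0.14 (95% confidence interval −0.31 to 0.04; adjusted p = 0.457 in edgeR).

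*Myd88* (ENSMUSG00000032508, chromosome 9, 119335934 to 119341411, reverse strand) had WT counts of 1729, 1959 and 1890 against 1950, 1773 and 1843 in ISM1-/-. The means were 47.3 ± 1.51 and 46.6 ± 0.70 CPM (SD, n = 3 each), and the log2 fold change was −0.02 (95% confidence interval −0.15 to 0.11; adjusted p = 0.909 in edgeR). It was the most even of the 7 across libraries. *Myd88* is the only one of the 7 that overlaps other genes of the table, and whether the counting used the strand is not given in the sources used here. It shares 1736 bases with *Acaa1a* on the other strand, a peroxisomal thiolase gene with 4786 to 5625 counts, and lies wholly within *Slc22a14* on its own strand, which had 48 to 84 counts. Its counts are therefore uncertain to that extent.

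*Ager* (ENSMUSG00000015452, chromosome 17, 34597862 to 34600936, forward strand) had WT counts of 54704, 80272 and 76088 against 79960, 76723 and 73537 in ISM1-/-. In CPM this is 1451, 1934 and 1968 in WT and 1881, 2022 and 1885 in ISM1-/-. WT replicate 1 was the lowest and the other 5 libraries lay close together. The log2 fold change was 0.11 (95% confidence interval −0.13 to 0.35; adjusted p = 0.680 in edgeR), and without WT replicate 1 it was −0.01 (adjusted p = 0.947 in edgeR). The alveolar type 1 marker list moved in the same library, with a summed level of 5972 CPM in WT replicate 1 against 7480 and 7666 CPM in the other WT libraries and 7678 to 8279 CPM in ISM1-/-. The part of this difference between libraries in the value of *Ager* was not tested.

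On the FPKM scale, which allows levels to be compared between genes, *Ager* stood far above the other 6. Its mean over the 6 libraries was 1252 FPKM, 95.01 times that of *Tlr4*, and the order was then *S100a9* (46.1), *Myd88* (29.3), *S100a8* (20.02), *Cd14* (14.4), *Tlr4* (13.2) and *Ly96* (5.30 FPKM). With the lengths behind the deposited FPKM, the calprotectin genes changed places in this order between genotypes. In WT the level of *S100a9* was 24.6 ± 4.67 FPKM, just under *Myd88* at 29.6 ± 0.95 FPKM, and in ISM1-/- it was 67.6 ± 23.9 FPKM, above *Myd88* at 29.0 ± 0.23 FPKM (SD, n = 3 each). In WT the level of *S100a8* was 10.6 ± 1.91 FPKM, below *Cd14* (15.2 ± 0.90) and *Tlr4* (13.03 ± 0.67 FPKM), and it overlapped *Tlr4*. In ISM1-/- the level of *S100a8* was 29.5 ± 10.2 FPKM, which overlapped *Myd88* and lay above *Cd14* (13.7 ± 1.12) and *Tlr4* (13.3 ± 0.24 FPKM) in all 3 libraries. *Cd14* and *Tlr4* overlapped in ISM1-/- but not in WT. The order depends on the length behind each FPKM value. *Tlr4* was divided by 1773 bases although the table lists a gene length of 5556 bases, and with the listed lengths *Tlr4* came to 4.20, and *S100a8* (14.2) and *Cd14* (14.4) exchanged places. With the listed lengths *S100a9* in WT (24.3) already lay above *Myd88* (18.4), and *S100a8* in WT (7.49) lay above *Tlr4* (4.16).

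*S100a8* and *S100a9* sit among 14 S100 genes on chromosome 3, of which 10 were tested. Over all 17 S100 genes listed, 12 were tested and 2 were called, *S100a8* and *S100a9*, both higher. The median log2 fold change of these 12 was 0.04, beside 0.004 over all genes tested. The gene nearest to *S100a8* in the table that was tested, *S100a7a*, had 1.51 FPKM in WT and 1.63 FPKM in ISM1-/- (log2 fold change 0.11), and *S100a6* had 281 and 266 FPKM (log2 fold change −0.07). *S100a11*, the next listed S100 gene beyond *S100a9*, had the highest level of the family and 374 and 325 FPKM (log2 fold change −0.19). It starts at 93520488, far beyond the end of *S100a9* at 90695721. *S100a4*, a gene of many stromal cells, was listed with only 0 to 5 counts. It shares 2115 bases with *Gm42674* on the same strand, so its count is uncertain and was not used.

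**Figure D2:**
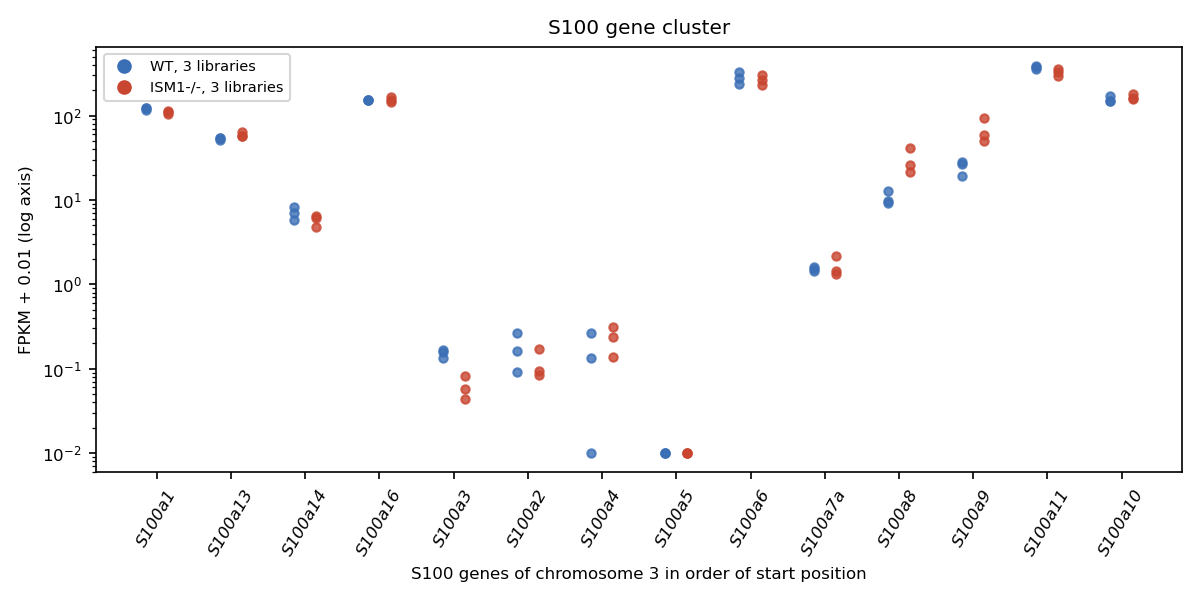
FPKM plus 0.01 (log axis) of the 14 S100 genes of chromosome 3 in order of start position, 1 point per library (WT blue, ISM1-/- red). *S100a8* and *S100a9* are the genes whose ISM1-/- libraries stand clearly above WT, and *S100a3*, *S100a2*, *S100a4* and *S100a5*, at the bottom, had too few counts to be tested. The counts of *S100a3*, *S100a2* and *S100a4* are uncertain, since each overlaps another gene on the same strand.

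Beyond the 7 genes, 13 lists of the calprotectin, TLR4 and RAGE pathways held 110 genes, of which 101 were tested. 4 were called higher (*S100a8*, *S100a9*, *Ccl5* and *Il1b*) and 2 lower (*Cebpd* and *Cebpb*), beside 1.38% and 3.34% of all genes tested, and 2 of the 4 are the calprotectin genes themselves. In 9 of the 13 lists no gene was called by edgeR. These lists held 70 tested genes, and 9 of them had an unadjusted p under 0.05 in edgeR (12.9%, beside 15.8% of all genes tested). DESeq2 called 1 of the 70 and limma called 0.

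The 4 genes of the TLR4 complex and lipopolysaccharide delivery ran from −0.14 to 0.04 on the log2 fold change scale. Among them *Lbp*, the serum protein that carries lipopolysaccharide to CD14, had the highest level at 45.1 FPKM and a log2 fold change of −0.13 (adjusted p = 0.308 in edgeR). The 15 genes of the MyD88 arm, from *Tirap* and the IRAK kinases to *Nfkb1* and *Rela*, had a median of −0.02 and ran from −0.11 to 0.11. The 7 genes of the TRIF arm, the second route from TLR4, had a median of 0.08 and all 7 estimates were above 0. Of 10 brakes on TLR4 signalling the median was −0.0049, and *Nfkbia*, which encodes the inhibitor that keeps NF-kB in the cytoplasm, had the highest level at 96.9 FPKM.

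The 8 other proteins reported to bind S100A8 or S100A9, which include basigin, neuroplastin and CD36, had a median of 0.16 with no gene called. Of these 8, 2 had an unadjusted p under 0.05 in edgeR (25%, beside 15.8% of all genes tested), both with estimates above 0. *Cd36*, which encodes a scavenger receptor, was the most abundant of them at 508 FPKM. The 6 genes of RAGE shedding, RAGE signalling and other receptors for glycated proteins had a median of −0.05, with *Lgals3*, encoding galectin-3, the most abundant at 124 FPKM. Of 9 other ligands of TLR4 or RAGE, 8 were tested with a median of 0.04, and *Bgn*, encoding the matrix proteoglycan biglycan, led at 555 FPKM. The 12 Toll-like receptor genes had a median of 0.13. In this list 3 genes had an unadjusted p under 0.05 in edgeR, all with estimates above 0, and DESeq2 called 1.

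Of 18 NF-kB and interferon targets of TLR4, 15 were tested and 2 were called, both higher, with a median of 0.19. *Ccl5*, which encodes a chemokine for T cells and monocytes, had 17.1, 12.0 and 9.08 CPM in WT and 32.3, 21.4 and 19.8 CPM in ISM1-/-. The genotypes did not overlap, and the log2 fold change was 0.95 with a standard error of 0.23 (adjusted p = 0.0671 in edgeR). *Il1b*, encoding interleukin 1 beta, had 5.81, 4.79 and 5.74 CPM in WT and 7.48, 10.4 and 6.92 CPM in ISM1-/- (log2 fold change 0.60, standard error 0.17, adjusted p = 0.0997 in edgeR). Neither call held with every library left out. The call of *Ccl5* was lost without WT replicate 2 or 3 or ISM1-/- replicate 1 or 2 (adjusted p = 0.135 to 0.212 in edgeR), and that of *Il1b* was lost without any library other than ISM1-/- replicate 3 (adjusted p = 0.143 to 0.304 in edgeR). The most abundant of these targets, *Icam1*, an adhesion molecule for leukocytes, had 215 FPKM and did not pass (adjusted p = 0.681 in edgeR).

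Of 8 transcription factors known for myeloid *S100a8* and *S100a9*, 7 were tested and 2 were called, both lower, against the direction of the calprotectin genes. The values are those of whole lung and do not give the level of these factors in myeloid cells. *Cebpd*, a C/EBP factor induced in acute inflammation, had 59.0, 130 and 123 CPM in WT and 56.9, 52.8 and 61.8 CPM in ISM1-/-, so that WT replicate 1 lay within the range of ISM1-/- (log2 fold change −0.87, standard error 0.24, adjusted p = 0.0966 in edgeR). *Cebpb*, the related factor of macrophages and of emergency granulopoiesis, had 114, 120 and 98.7 CPM in WT and 83.0, 93.5 and 63.4 CPM in ISM1-/- (log2 fold change −0.47, standard error 0.13, adjusted p = 0.0967 in edgeR). The *S100a9* promoter shown above holds C/EBP letters and the *S100a8* window does not, which says only that these letters are absent from it. The call of *Cebpd* was kept only without WT replicate 1 (adjusted p = 0.000522 in edgeR) and otherwise lost (0.122 to 0.290), and that of *Cebpb* was lost without any WT library or ISM1-/- replicate 1 (0.119 to 0.289). *Stat3*, the most abundant factor of the list at 137 FPKM, was not called.

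**Figure D3:**
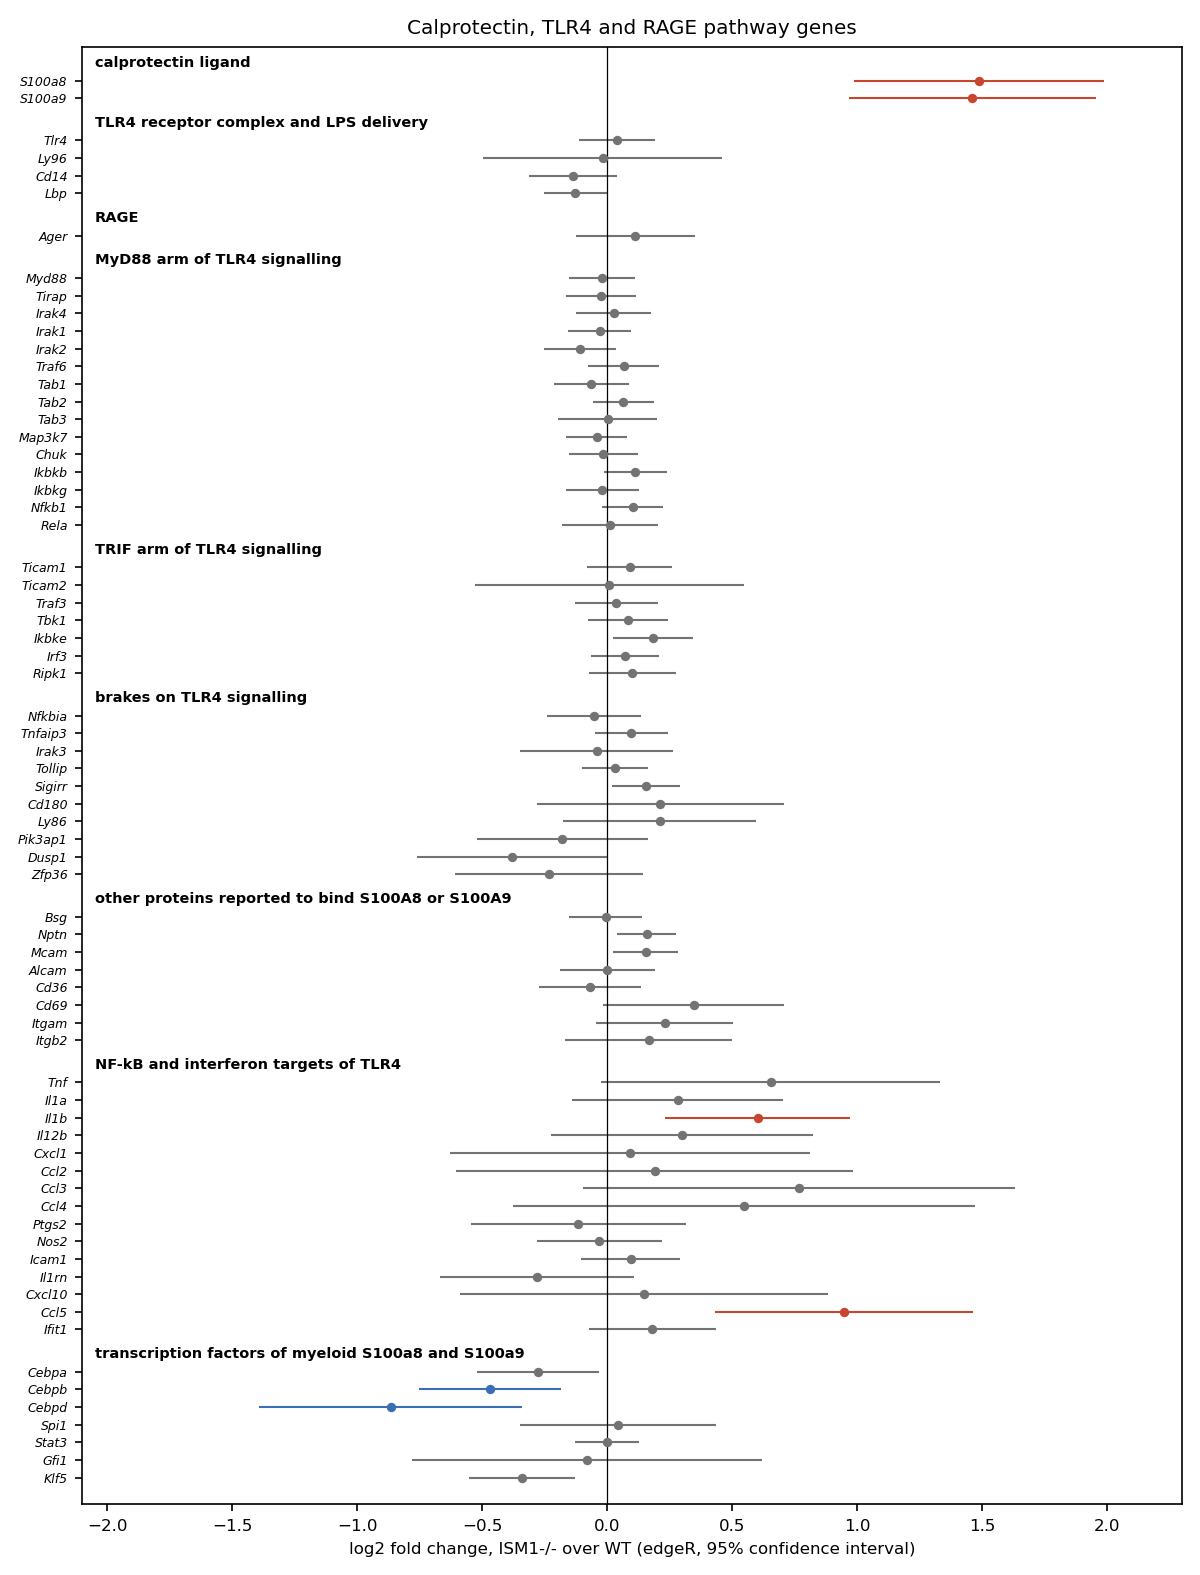
Log2 fold change of ISM1-/- over WT with its 95% confidence interval from edgeR (x axis) for the tested genes of 9 of the lists, n = 3 libraries per genotype, with genes called higher in red, lower in blue and the rest in grey. *S100a8* and *S100a9* stand apart at 1.49 and 1.46, and the receptor, MyD88 and TRIF genes lie close to 0.

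Calprotectin is a major product of neutrophils, so their markers were set beside it. Of 16 mature neutrophil markers 15 were tested and 3 were called by edgeR, all higher, with a median log2 fold change of 0.28. DESeq2 called 3 higher and 1 lower. In edgeR 1 was also called lower with library totals without TMM, without a filter on low counts, and without WT replicate 1 or ISM1-/- replicate 3. *Cxcr2*, the chemokine receptor that draws neutrophils out of the marrow, had 2.71, 2.36 and 4.53 CPM in WT and 8.56, 8.41 and 5.15 CPM in ISM1-/- (log2 fold change 1.21, standard error 0.26, adjusted p = 0.0471 in edgeR). *Csf3r*, the receptor for granulocyte colony-stimulating factor, had 22.1, 19.5 and 28.3 CPM in WT and 40.9, 45.8 and 26.6 CPM in ISM1-/-, so that it overlapped (log2 fold change 0.70, adjusted p = 0.0970 in edgeR). DESeq2 did not call *Csf3r* (adjusted p = 0.117 in DESeq2), so the 3 it called higher are not the same set. *Clec4d*, a C-type lectin receptor of myeloid cells, had 1.25 to 1.68 CPM in WT and 2.23 to 2.98 CPM in ISM1-/- (log2 fold change 0.81, adjusted p = 0.0710 in edgeR). The defining marker *Ly6g* had only 1 to 8 counts in any library and was not tested. No mature marker was called higher without WT replicate 1 or 2 or ISM1-/- replicate 1 or 2 (adjusted p in edgeR of 0.108 to 0.167 for *Cxcr2*, 0.194 to 0.287 for *Csf3r* and 0.157 to 0.229 for *Clec4d*), 2 were without WT replicate 3, and 5 were without ISM1-/- replicate 3, whereas the calprotectin genes were called in each of these fits.

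The summed level of the mature list overlapped between genotypes, at 149 to 167 CPM in WT and 148 to 184 CPM in ISM1-/-. Between 38.3% and 61.3% of it came from *Hdc*, the histidine decarboxylase that basophils and mast cells also express, and *Hdc* itself had a log2 fold change of −0.30 (adjusted p = 0.107 in edgeR) with no overlap between genotypes. Without *Hdc* the sums were 64.9 to 75.8 CPM in WT and 70.5 to 111 CPM in ISM1-/-. The sum of *S100a8* and *S100a9* was 14.7, 18.1 and 20.8 CPM in WT and 68.6, 43.1 and 36.5 CPM in ISM1-/-. Divided by the mature list it was 0.0986, 0.108 and 0.124 in WT and 0.373, 0.240 and 0.246 in ISM1-/-. Without *Hdc* the ratio was 0.225, 0.279 and 0.274 in WT and 0.650, 0.389 and 0.517 in ISM1-/-. Under either list the genotypes did not overlap, as was already so for the sum of *S100a8* and *S100a9* alone. The genotypes did overlap against *Cxcr2* and *Csf3r*, which were themselves called higher in ISM1-/-. Ratios to the other single markers were not taken. The ratio of *S100a9* to *Cxcr2* CPM was 3.68, 5.73 and 3.21 in WT and 5.67, 3.60 and 5.005 in ISM1-/-, and that of *S100a9* to *Csf3r* was 0.4496, 0.693 and 0.513 in WT against 1.19, 0.661 and 0.969 in ISM1-/-. The part of neutrophil number in the rise of calprotectin was not tested.

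Several granule genes of neutrophil precursors were barely detected. Of 8 markers 4 were tested, *Mpo*, *Elane*, *Ctsg* and *Camp* had at most 8 counts in any library, and 1 was called, *Ngp*, encoding neutrophilic granule protein, with WT counts of 1, 11 and 12 against 59, 42 and 27 in ISM1-/- (adjusted p = 0.0504 in edgeR, and 0.137 to 0.175 without WT replicate 2 or ISM1-/- replicate 1 or 2). *Ngp* falls under the level set for genes to be named and was singled out after its values were seen, as were *Ltf* and *Prtn3*. The median log2 fold change of the 4 tested markers was −0.15. *Ltf*, encoding lactoferrin, had 56.7, 50.3 and 54.3 CPM in WT against 35.3, 45.3 and 49.0 CPM in ISM1-/- (log2 fold change −0.32, unadjusted p = 0.0171 and adjusted p = 0.187 in edgeR), and DESeq2 called it lower. *Prtn3*, encoding proteinase 3, was under 1 CPM in all libraries and had a log2 fold change of −0.68 (adjusted p = 0.284 in edgeR), also without overlap. The most abundant, *Lcn2*, is also made by airway epithelium. The 4 tested markers summed to 155 to 166 CPM in WT and 151 to 154 CPM in ISM1-/-.

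Markers of other cells that can hold calprotectin, and of blood, were summed in the same way. Monocyte markers summed to 809 to 886 CPM in WT and 713 to 802 CPM in ISM1-/-, and 1 of 8 was called, *F13a1*, encoding the A chain of coagulation factor XIII, which was lower (log2 fold change −0.65, adjusted p = 0.0238 in edgeR). The call of *F13a1* was kept in all 6 fits with a library left out. DESeq2 called 2 of the 8 monocyte markers, both lower, and 3 had an unadjusted p under 0.05 in edgeR. Alveolar macrophage markers, led by *Chil3*, summed to 698 to 784 CPM in WT and 648 to 749 CPM in ISM1-/-, and 0 of 10 were called by edgeR, DESeq2 or limma, with 1 at an unadjusted p under 0.05. Squamous and basal epithelial markers, in which calprotectin is also made, summed to 5.85 to 9.52 CPM in WT and 3.58 to 4.31 CPM in ISM1-/-, and 1 of 4 tested, *Sprr1a*, was lower (log2 fold change −1.41, adjusted p = 0.0539 in edgeR). The call of *Sprr1a* was lost without WT replicate 2 or ISM1-/- replicate 1 or 2 (adjusted p = 0.137 to 0.176 in edgeR). Platelet and erythroid transcripts, which follow residual blood, spread widely within both genotypes, at 152 to 463 CPM in WT and 166 to 644 CPM in ISM1-/-, and 0 of 8 were called by edgeR, with 2 at an unadjusted p under 0.05 and 1 called by DESeq2. By library the sums were 277, 152 and 463 CPM in WT, against 166, 644 and 181 CPM in ISM1-/-. The part of any of these cell types or of residual blood in the rise of calprotectin was not tested.

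For the lung's own cells, 1 of 10 alveolar type 1 markers was called, *Rtkn2*, with 222, 298 and 307 CPM in WT and 367, 359 and 399 CPM in ISM1-/- (log2 fold change 0.45, adjusted p = 0.0715 in edgeR), a call lost without WT replicate 2 or any ISM1-/- library (0.117 to 0.175). The most abundant marker of this list was *Vegfa* at 1114 FPKM, below *Ager* itself. Of 9 alveolar type 2 markers, led by *Sftpc*, and of 6 endothelial markers, led by *Cdh5*, 0 were called by edgeR, DESeq2 or limma, with 1 and 3 at an unadjusted p under 0.05. All 7 adipocyte markers were called lower, with sums of 173 to 214 CPM in WT and 37.4 to 96.7 CPM in ISM1-/-, and ISM1-/- replicate 1 had the lowest of these sums. With each library left out in turn *Cfd*, *Cidec* and *Plin1* were called in all 6 fits, *Fabp4* in 4, *Adipoq* in 3, *Lep* in 2 and *Retn* in 1. All 8 cardiomyocyte markers had negative estimates, with a median of −1.01, and all 8 had an unadjusted p under 0.05 in edgeR. *Myl7* was the 1 of 8 called, lower in ISM1-/- (log2 fold change −1.11, adjusted p = 0.0970 in edgeR), a call kept without ISM1-/- replicate 3 (adjusted p = 0.0735) and lost without any other library (0.106 to 0.280).

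**Figure D4:**
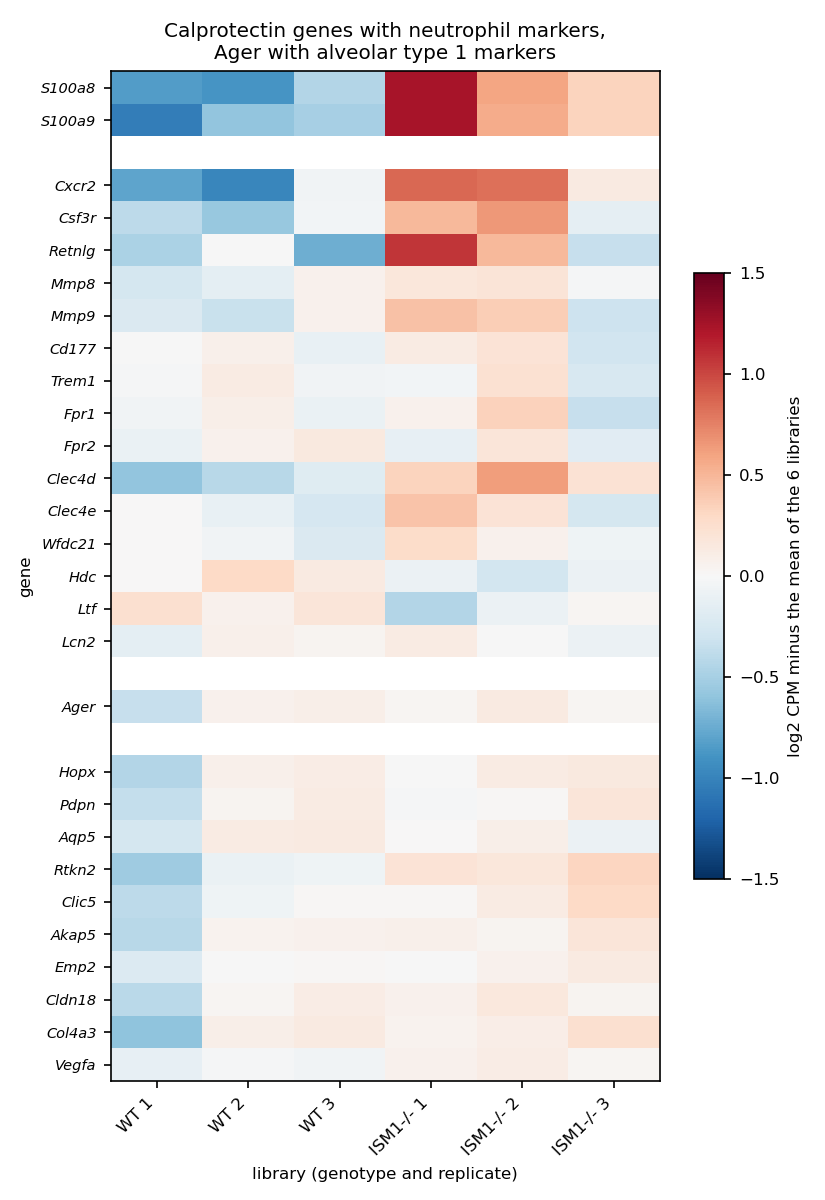
Log2 CPM of each gene minus its mean over the 6 libraries (colour, red above and blue below the mean) for the calprotectin genes, neutrophil markers whose mean reached 1 CPM, *Ager* and alveolar type 1 markers, 1 column per library. *S100a8*, *S100a9* and *Cxcr2* are red in all 3 ISM1-/- columns, while *Ager* and the alveolar type 1 markers are lowest in WT replicate 1.

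The genes closest in pattern to calprotectin were sought among the 15876 genes whose mean reached 1 CPM, by the root mean square difference of log2 CPM over the 6 libraries after each gene was centred on its own mean. *S100a8* and *S100a9* differed from each other by 0.146 on this scale. The nearest 5 genes to their mean were *Igkv6-15* (0.082), *Igkc* (0.215), *Slfn4* (0.272), *Crabp1* (0.284) and *Cxcr2* (0.289). *Igkc*, the constant region of the kappa light chain of antibodies and so a transcript of B cells and plasma cells, had 45.2, 42.0 and 50.8 CPM in WT and 127, 88.8 and 84.8 CPM in ISM1-/-. *Igkv6-15*, a variable segment of the same chain, had 0.743, 0.819 and 0.957 CPM in WT and 3.65, 1.95 and 1.67 CPM in ISM1-/-, and reads of such segments can be split among near-identical copies. *Slfn4*, a myeloid Schlafen gene, had 5.04, 4.0 and 5.07 CPM in WT and 12.8, 11.3 and 7.30 CPM in ISM1-/-. In all 5 genes ISM1-/- replicate 1 was the highest library and replicate 3 the lowest of its genotype, as for calprotectin. Since the genes were picked by this pattern, the shared order was favoured in advance. *Crabp1* encodes a retinoic acid-binding protein.

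The patterns of the other 5 genes were flatter, with a root mean square about their own mean of 0.031 for *Myd88*, 0.053 for *Tlr4*, 0.104 for *Cd14*, 0.159 for *Ager* and 0.256 for *Ly96*, against 0.777 for calprotectin. The genes nearest to *Ager* were *Gprc5a*, *Spock2* and *Krt7* (0.022 to 0.033), all of them lowest in WT replicate 1. Those of *Ly96* were *Akr1c14*, *Edn3* and *Tent5b* (0.050 to 0.076), also lowest in WT replicate 1. *Tlr4* was closest to *Ptprb*, *Msl1* and *Cpd* (0.018 to 0.021), *Cd14* to *Pex14*, *Rpap1* and *Mta3* (0.018 to 0.020) and *Myd88* to *Rnf7*, *P4hb* and *Tmed9* (0.012 to 0.015). The patterns are descriptions over 6 libraries. None of the 3 genes nearest to *Tlr4*, *Ly96*, *Cd14*, *Myd88* or *Ager* belonged to the 7.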

How the data were processed

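Poly-A RNA from 6 perfused lungs was made into strand-specific libraries and sequenced in pairs. The authors filtered reads and mapped them to GRCm38 with STAR, and deposited raw counts per gene and FPKM values. The submitters' processing notes also name CASAVA. The counting program, annotation and strand setting are not given in the sources used here. The deposited FPKM equal counts divided by the library total and by 1 fixed length per gene. Genes reaching 0.5 CPM in 1 library or more were scaled by TMM and compared with edgeR 4.0.16 in R 4.3.3 (glmQLFit, glmQLFTest, no covariates), with an adjusted p under 0.1 over all genes. DESeq2 1.42.0, limma 3.58.1 on log2(FPKM + 1) and log2(FPKM + 0.1), other scalings and filters, a replicate block and the omission of each library were alternatives. Log2 CPM used a prior count of 2.

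The 7 genes and the gene lists were chosen with earlier results of these data known. Genes named in the text are the 7, *Ism1*, up to 4 called genes (mean 1 CPM or more) and the most abundant gene of a list, genes overlapping one of the 7, and their nearest patterns. Others are named as examples of a list or as neighbours on the chromosome. The lists held 207 genes. Replicates differed beyond sampling noise (chi-square per degree of freedom 5.65 to 22.1). The labels give triplicates without naming the mice, so p-values measure the spread between these libraries. On simulated counts for this comparison (18689 genes), edgeR recovered 80 of 100 genes changed 2-fold and 98 of 100 changed 4-fold, and 21 of its 199 calls were unchanged genes.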

Additional observations from a re-analysis of the deposited data

How the results depend on the processing

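The rise of *S100a8* and *S100a9* was called under all 15 refits, with log2 fold changes of 1.19 to 1.67 (adjusted p up to 0.0808) and 1.15 to 1.64 (adjusted p up to 0.0764), and 2 of the 7 genes were called higher and 0 lower under every setting. With 1 library left out at a time, the log2 fold changes lay between −0.0027 and 0.064 for *Tlr4*, −0.20 and 0.16 for *Ly96*, −0.042 and 0.0025 for *Myd88*, −0.014 and 0.19 for *Ager*, and kept their sign for *Cd14*. *Tlr4* and *Myd88* turned without WT replicate 3 and *Ager* without WT replicate 1. *Ly96* turned without WT replicate 2 or 3 or ISM1-/- replicate 1 or 2. None of these was called. Of the pathway genes, 4 were called higher and 2 lower. The higher count was 2 under both limma fits, at an adjusted p under 0.05 and with a 2-fold minimum, and 2 to 9 with a library left out (9 without ISM1-/- replicate 3). The lower count was 5 without a filter on low counts, 0 with a mean above 2 CPM, under both limma fits, at an adjusted p under 0.05 and with a 2-fold minimum, and 0 to 3 with a library left out. The cause was not tested. The ratio of *S100a9* to *S100a8* in ISM1-/- was 2.29 from FPKM, where the lengths differ. The ratio of calprotectin to the mature neutrophil list was 0.259 in WT and 0.519 in ISM1-/- without *Hdc*, an alternative chosen after seeing the data.

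Replicate numbers did not pair the libraries. The deviations of same-numbered libraries correlated at −0.040, 0.031 and 0.001. With the replicate number as a block, the log2 fold changes of *S100a8* and *S100a9* were 1.45 and 1.42 (adjusted p = 0.0131 and 0.0156 in edgeR), and 4 pathway genes were called higher and 3 lower. The low counts of *Ly96* and *Ly6g*, and the spread of *Ly96* between libraries, limit what can be said of them. Lists whose calls turn with a single library cannot be read as firmly as the calprotectin genes.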
